A study of Mus musculus with 24 samples.

Results

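Transcripts of the BCL2 family and of an apoptosis adaptor were examined in primary mouse brite adipocytes after knockdown of the long noncoding RNA Ctcflos. The 10 genes were the anti-apoptotic Bcl2, Bcl2l1, Bcl2l2 and Mcl1, the effector Bak1, the BH3-only genes Bad, Bid, Bcl2l11 and Pmaip1, and the adaptor Cradd. They carried 75 of the 168326 transcript entries of the table, and the table named 52089 genes. Each gene was represented by 1 RefSeq entry, selected on the highest mean RPKM (reads scaled by transcript length and library size) over the 24 libraries, so that levels are given as descriptions. The genes were listed with earlier results of these data known, and Cradd was by then known as one of the largest falls at 24 h, so its values at 24 h are given as a description and its call at that time supports nothing.

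Cells of the stromal vascular fraction of inguinal white adipose tissue of 129SvEv mice were induced and then differentiated with rosiglitazone, which drives white adipocytes towards the heat-producing brite state. All groups thus shared strain, depot and rosiglitazone. After 2 days of induction and 1 day of differentiation, cells were reverse transfected with 50 nM of LNA gapmer antisense oligonucleotide, which recruits RNase H to its target RNA. The gapmer was directed either against Ctcflos (KD) or against no mouse transcript (NC), and RNA was harvested 24 h or 72 h later, with 6 libraries in each of the 4 groups. The labels do not say which Ctcflos gapmer was used. The study describes its transcriptome replicates as biological, whereas the labels name no animals or cultures behind a replicate number, and p-values measure the spread between these samples. In bulk RNA, fewer cells of a type and less RNA per cell cannot be told apart.

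Proteins of the BCL2 family decide at the outer mitochondrial membrane whether cytochrome c leaves the mitochondrion. Anti-apoptotic members hold the effectors BAX and BAK in check, whereas BH3-only members either occupy the anti-apoptotic proteins or activate the effectors. Many of these proteins are controlled after transcription, by phosphorylation, cleavage or rapid turnover, so that a transcript level is only one layer of their control. CRADD, also called RAIDD, stands apart from the family: its death domain and caspase recruitment domain link PIDD1 to caspase-2.

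The genes lie on separate chromosomes except Bcl2l1 and Bcl2l11, which are both on chromosome 2 (GRCm38, GENCODE M21). Cradd occupies chr10:95174746-95324133 on the minus strand, a span of 149.4 kb, and Bcl2 spans 176.1 kb. Bcl2l1 spans 51.1 kb, Bcl2l11 36.5 kb and Bid 24.9 kb, whereas the other genes cover 4.39 to 10.04 kb. Promoter windows of 300 bases around a RefSeq transcription start, most of them upstream, were found for 9 of the genes (13 windows). The 3 printed here belong to the genes whose called changes held without any single library: Bcl2l11 at chr2:128125788-128126087 (plus strand), Bid at chr6:120916775-120917074 (minus strand) and Cradd at chr10:95324088-95324387 (minus strand). They are from RefSeq (GRCm38.p6) and run 5′ to 3′ along the gene, and capitals mark matches on either strand to a forkhead motif (GTAAACA), a cAMP response element (TGACGTCA), an E-box (CACGTG), a GC box (GGGCGG) or a CCAAT box (CCAAT).
Bcl2l11: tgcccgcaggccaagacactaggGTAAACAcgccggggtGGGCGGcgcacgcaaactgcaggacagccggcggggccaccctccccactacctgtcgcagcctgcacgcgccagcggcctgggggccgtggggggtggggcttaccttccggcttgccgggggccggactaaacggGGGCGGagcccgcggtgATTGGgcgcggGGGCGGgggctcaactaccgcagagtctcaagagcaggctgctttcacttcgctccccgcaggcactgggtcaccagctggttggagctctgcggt
Bid: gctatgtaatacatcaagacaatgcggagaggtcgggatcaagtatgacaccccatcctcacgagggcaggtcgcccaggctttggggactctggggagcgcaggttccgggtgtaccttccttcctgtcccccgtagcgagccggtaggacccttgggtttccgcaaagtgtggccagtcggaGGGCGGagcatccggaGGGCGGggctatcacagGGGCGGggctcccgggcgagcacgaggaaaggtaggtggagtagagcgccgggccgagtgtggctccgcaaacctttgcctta
Cradd: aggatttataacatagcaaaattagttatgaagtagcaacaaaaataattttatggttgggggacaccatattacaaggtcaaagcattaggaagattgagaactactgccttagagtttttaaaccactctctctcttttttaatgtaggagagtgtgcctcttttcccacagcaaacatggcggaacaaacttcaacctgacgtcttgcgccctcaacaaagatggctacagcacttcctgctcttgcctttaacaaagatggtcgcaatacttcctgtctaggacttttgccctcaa

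The forkhead letters stood in 1 of the 13 windows and in 3.65% of all 32851 windows of the reference. That window was the one printed for Bcl2l11, which is a known target of FOXO forkhead factors. The other window of Bcl2l11, at chr2:128127325-128127624, did not hold them. The GC box was found in 7 of the 13 windows (6 genes), 3 times each in those printed for Bcl2l11 and Bid, and in 35.7% of all windows. The CCAAT box was found in 3 of the 13 windows (2 genes) and in 37.4% of all windows. The cAMP response element (1.79% of all windows) and the E-box (7.15%) were found in none of the 13. The window of Cradd held none of the 5 motifs and had a GC content of 40.3%, compared with 71.0% in the one printed for Bcl2l11 and 63.3% in that of Bid. These matches describe letters, and binding was not measured.

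Libraries held between 1391832 and 5423840 mapped reads (median 3945867). NC 72 h replicates 2 and 3 differed by less than the sampling noise (0.33 of it, with 1.84 for the next of 276 pairs). They were counted as 1 sample, which left n = 5 in NC 72 h. Fits without either of these replicates kept the other, so this sample was never left out whole. KD 24 h replicate 6 was the shallowest library and stood apart, with a mean correlation of 0.890 to the rest of its group, whereas the other KD 24 h libraries reached 0.944 to 0.957. By their deviations from the group means, the libraries also split into 2 clusters, 16 in the larger and 8 in the smaller, which took 2 from each group. The labels name no such batch. Values within each cluster are given beside the results they change. On the deposited scale, the RefSeq transcript of Ctcflos averaged 0.189 ± 0.244 RPKM in KD 24 h and 0.741 ± 0.515 RPKM in NC 24 h (SD, n = 6 each, two-sided exact permutation p = 0.045). At 72 h it averaged 0.231 ± 0.220 RPKM in KD (SD, n = 6) and 1.23 ± 0.41 RPKM in NC (SD, n = 5, exact permutation p = 0.0043, adjusted over both times 0.0087). All 6 adipocyte markers (Adipoq, Fabp4, Plin1, Pparg, Cebpa and Lpl) were above 0, summing to 25766 to 53515 deposited RPKM per library. The sum of the 5 endothelial markers stayed between 0.192 and 3.31 deposited RPKM. Stromal progenitor markers summed to 319 to 959 deposited RPKM per library, and smooth muscle markers to 203 to 1392. Most of the stromal sum came from Ly6a, and most of the smooth muscle sum from Acta2 and Tagln. After scaling between libraries, Ly6a averaged 669 ± 223 RPKM in NC 24 h and Pdgfra 7.83 ± 1.25 RPKM (SD, n = 6). Acta2 averaged 586 ± 331 and Tagln 218 ± 106 RPKM in the same group (SD, n = 6).

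Levels of the family differed widely between its members. In NC 24 h, Bad had the highest mean at 18.3 ± 3.4 RPKM, followed by Bid at 11.0 ± 3.1, Mcl1 at 9.90 ± 1.35, Bcl2l1 at 8.57 ± 1.68, Cradd at 6.08 ± 1.36 and Bak1 at 5.75 ± 1.28 RPKM (SD, n = 6). These values were scaled between libraries by a trimmed mean of log ratios, as were all RPKM not named as deposited. The ranges of Bid, Mcl1 and Bcl2l1 overlapped, as did those of Cradd and Bak1. Bcl2l2 at 2.14 ± 0.54 and Bcl2l11 at 0.779 ± 0.251 RPKM were lower, and Pmaip1 (0.342 ± 0.354) and Bcl2 (0.0767 ± 0.1550 RPKM) were lowest on the deposited scale. RPKM divides by the full transcript length although the reads came from 3′ ends, so the order is one of deposited units. The mean number of reads per library ran from 1.29 for Bcl2 over 8.38 for Pmaip1, 24.2 for Bcl2l11, 25.3 for Bcl2l2 and 26.4 for Cradd to 180.1 for Mcl1. Mcl1 was the steadiest transcript in NC 24 h, with a coefficient of variation of 13.6%, and Bad was the steadiest in NC 72 h with 8.02%.

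The comparison of KD with NC asked how the loss of Ctcflos bears on the transcripts 24 h and 72 h later. Log2 fold changes were taken on log2(scaled RPKM + 0.1). At 24 h, 8 of the 10 genes passed the filter on low values. It asks for the worth of 10 reads in at least as many samples, of either group, as the smaller group holds. With Cradd left aside, 4 of 7 were called by limma at an adjusted p under 0.05. Bcl2l11, Mcl1 and Bak1 were higher in KD and Bad was lower. The 4 became 1 without KD replicate 1 or 2 or NC replicate 1, 5 or 6, and 2 without KD replicate 5 or NC replicate 2, 3 or 4. Across all entries tested at 24 h, 22.7% were called, 11.1% higher and 11.6% lower. At 72 h, 9 of the 10 genes passed the filter and 3 were called, Bid and Bcl2l1 higher in KD and Cradd lower, beside 22.4% of all entries (10.3% higher and 12.1% lower). Leaving Cradd aside, the median log2 fold change of the fitted genes was 0.54 at 24 h and 0.64 at 72 h. Over all entries it was -0.01 and 0.01. With Cradd, whose value at 24 h is a description only, the medians were 0.23 and 0.56. A gene could pass the filter through 1 group alone, so these counts and medians describe the genes that passed and not the family. On the deposited scale the median of all entries at 72 h shifted to 0.25, and the split of calls moved from 5619 higher and 6545 lower to 13155 higher and 3101 lower.

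**Figure D1:**
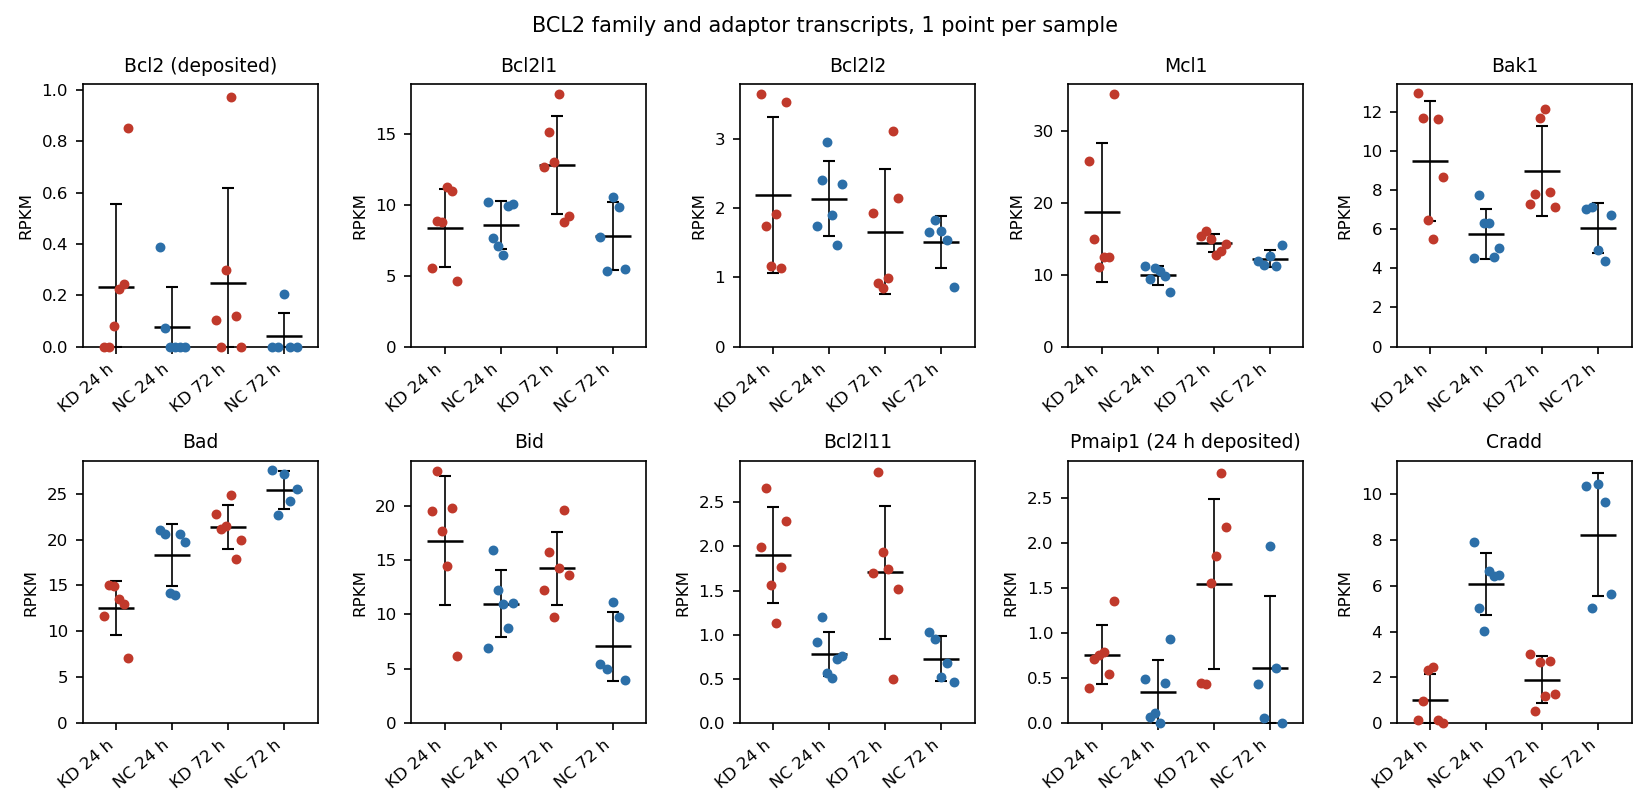
RPKM of the 10 genes (vertical axes, each from 0) in KD (red) and NC (blue) at 24 h and 72 h. Each point is 1 sample, lines are means and bars SD, cut at 0. Values are scaled except for Bcl2 and for Pmaip1 at 24 h, which are as deposited. Cradd separates KD from NC at both times, with KD samples at 0 to 3.03 and NC samples at 4.02 to 10.5.

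Among the anti-apoptotic genes, Mcl1 was called at 24 h and Bcl2l1 at 72 h. Mcl1 (NM_008562), which encodes a short-lived guardian of BAK and BIM, measured 11.1, 13.7 and 35.1 RPKM as lowest, median and highest value in KD 24 h and 7.52, 10.2 and 11.2 RPKM in NC 24 h. The lowest KD value (11.11) lay just below the highest NC value (11.16), and KD replicates 1 (25.8) and 6 (35.1 RPKM) stood far above the other 4 KD samples, which reached 15.0 at most. The mean of 18.6 ± 9.7 RPKM in KD was 1.88 times that in NC (9.90 ± 1.35, SD, n = 6 each), and the log2 fold change was 0.78 ± 0.26 (SE, limma adjusted p = 0.042). The call was lost without KD replicate 1 or 2 or any of the 6 NC replicates (adjusted p = 0.058 to 0.096, log2 fold change 0.65 to 0.82). Without KD replicate 6 it held at 0.57. Taken alone, the larger cluster gave 0.93 and the smaller one 0.44, where it was not called (limma adjusted p = 0.28).

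At 72 h Mcl1 was tighter in both groups, at 14.4 ± 1.3 RPKM in KD (12.7 to 16.0, n = 6) and 12.2 ± 1.2 RPKM in NC (SD, n = 5), where the 5 samples measured 11.9, 11.3, 12.6, 11.1 and 14.1. The groups overlapped. Its log2 fold change was 0.24 with a 95% interval of -0.02 to 0.49 (limma adjusted p = 0.17), and without scaling it was 0.49 and called (adjusted p = 0.012).

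Bcl2l1 (NM_009743) encodes BCL-XL, which protects long-lived cells from effector activation. At 24 h it measured 4.61, 8.84 and 11.3 RPKM as lowest, median and highest in KD and 6.47, 8.80 and 10.2 RPKM in NC, and its log2 fold change was -0.09 with a 95% interval of -0.58 to 0.41 (limma adjusted p = 0.81). At 72 h it measured 8.76, 12.9 and 17.8 RPKM in KD, and the NC samples gave 7.71, 5.36, 10.5, 9.85 and 5.44 RPKM. The 4 highest KD samples (12.7 to 17.8) lay above every NC sample, and the other 2, both of the smaller cluster, lay within the NC range. Its mean rose from 7.77 ± 2.40 in NC (n = 5) to 12.8 ± 3.5 RPKM in KD (SD, n = 6), a log2 fold change of 0.72 ± 0.23 (SE, limma adjusted p = 0.038).

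The call of Bcl2l1 was lost without KD replicate 1, 2, 3 or 4 or NC replicate 1 or 6 (limma adjusted p = 0.064 to 0.094, log2 fold change 0.61 to 0.73). Within the larger cluster its log2 fold change was 1.24 (adjusted p = 0.0010), and within the smaller cluster it was -0.16 (0.71). At 24 h the entries of Bcl2l1 did not give 1 value either: over the 8 that were fitted, log2 fold changes ran from -1.33 to -0.06, whereas at 72 h they ran from 0.56 to 0.74. Entries of a gene share reads.

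Bcl2l2 (NM_007537), which encodes BCL-W, averaged 2.19 ± 1.13 RPKM in KD 24 h and 2.14 ± 0.54 RPKM in NC 24 h (SD over 6 samples), and KD ran from 1.13 to 3.64 RPKM around the NC range of 1.47 to 2.96. The log2 fold change was -0.08 with a 95% interval of -0.74 to 0.58 (limma adjusted p = 0.88). At 72 h it was 0.01 with an interval of -0.73 to 0.75 (adjusted p = 0.99).

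Bcl2 (NM_177410), the founding member, was near the limit of detection. At 24 h KD held 10 reads in 6 libraries, with a lowest, median and highest deposited level of 0, 0.153 and 0.852 RPKM, and NC held 4 reads, with 0, 0 and 0.387 RPKM. At 72 h the 6 KD libraries held 15 reads and a mean of 0.248 ± 0.371 RPKM, and NC held 2 reads, with a mean of 0.0406 ± 0.0907 RPKM (SD, n = 5) and 4 of its 5 samples at 0. A level of 3 reads is worth 0.219 RPKM in the deepest and 0.852 RPKM in the shallowest library. Two-sided exact permutation tests gave p = 0.35 at 24 h and p = 0.22 at 72 h (adjusted over 3 tests 0.35 and 0.33), so a difference was not detectable at this depth.

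The effector Bak1 (NM_007523), whose product opens the outer mitochondrial membrane, was called at 24 h. KD 24 h measured 5.51, 10.1 and 13.0 RPKM as lowest, median and highest, and NC 24 h measured 4.52, 5.67 and 7.76 RPKM. In KD, 4 samples (8.68 to 13.0) lay above every NC sample and the remaining 2, both of the smaller cluster, lay within the NC range. With means of 9.49 ± 3.06 (KD) against 5.75 ± 1.28 RPKM (NC, SD, n = 6 each), KD was 1.65 times higher, with a log2 fold change of 0.67 ± 0.23 (SE, limma adjusted p = 0.049). The call was lost without KD replicate 1, 2, 5 or 6 or NC replicate 1, 3, 4, 5 or 6 (adjusted p = 0.051 to 0.11, log2 fold change 0.57 to 0.70). Within the larger cluster it was 0.83 (adjusted p = 0.021), and within the smaller one 0.31 (0.53).

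At 72 h Bak1 measured 7.12, 7.84 and 12.2 RPKM in KD as lowest, median and highest, and 7.04, 7.11, 4.93, 4.39 and 6.72 RPKM in the NC samples. The groups touched without overlap, the lowest KD sample at 7.12 and the highest NC sample at 7.11 RPKM. The log2 fold change was 0.56 ± 0.20 (SE, 95% interval 0.13 to 0.99), short of the threshold at a limma adjusted p of 0.060. It passed without KD replicate 6 (adjusted p = 0.049) or NC replicate 2 (0.046), without scaling (0.0054) and with the cluster as a term (0.032). It stayed uncalled in 19 of 24 alternatives, and the clusters were drawn from these same libraries.

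The highest log2 fold changes among the called rises belonged to BH3-only genes. Bcl2l11 (NM_009754) encodes BIM, which binds all anti-apoptotic members and can activate the effectors. In KD 24 h it measured 1.13, 1.88 and 2.67 RPKM as lowest, median and highest, and in NC 24 h 0.509, 0.741 and 1.1996 RPKM. A single KD sample, replicate 4 at 1.13, lay below the highest NC sample. Its mean rose from 0.779 ± 0.251 to 1.90 ± 0.54 RPKM (SD, n = 6 each), 2.44 times, with a log2 fold change of 1.19 ± 0.26 (SE, limma adjusted p = 0.0064). The call held without each library in turn (1.09 to 1.32), and it came to 1.38 within the larger cluster and to 0.76 within the smaller one, the latter short of the threshold (adjusted p = 0.33). All 7 of its fitted entries, which share reads, lay between 1.18 and 2.02.

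At 72 h Bcl2l11 measured 0.495, 1.72 and 2.85 RPKM in KD and 1.04, 0.946, 0.516, 0.677 and 0.469 RPKM in the NC samples. In KD, 5 of the 6 samples (1.51 to 2.85) lay above every NC sample, and replicate 5 (0.495 RPKM) lay at the low end of NC. The log2 fold change was 1.03 ± 0.37 (SE, 95% interval 0.24 to 1.83, limma adjusted p = 0.058), and without KD replicate 5 it was 1.33 and called (adjusted p = 0.0047), as it was without NC replicate 3 (0.046). Without scaling it was 1.26 (0.017). The interaction of knockdown and time, -0.15 ± 0.46 (SE, adjusted p = 0.93), did not pass, so that a difference between the times was not shown.

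Bid (NM_007544), whose product is cleaved by caspase-8 and carries the death receptor signal to mitochondria, was called at 72 h. KD 72 h measured 9.78, 13.98 and 19.6 RPKM as lowest, median and highest, and the NC samples gave 5.44, 4.96, 11.2, 9.78 and 3.95 RPKM. In KD, 5 of 6 samples lay above every NC sample, the exception being replicate 3 at 9.78. The mean rose from 7.06 ± 3.20 (n = 5) to 14.2 ± 3.3 RPKM (SD, n = 6), 2.02 times, with a log2 fold change of 1.08 ± 0.26 (SE, limma adjusted p = 0.0095), and the call held without each library in turn (0.90 to 1.27). It was 1.41 in the larger cluster and 0.66 in the smaller one, where it was not called (adjusted p = 0.12).

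At 24 h Bid measured 6.13, 18.6 and 23.1 RPKM in KD and 6.92, 11.0 and 15.9 RPKM in NC. Replicate 6, the shallow library, held the 6.13 RPKM, and 4 of the other 5 KD samples (17.7 to 23.1) lay above every NC sample. The log2 fold change was 0.54 ± 0.29 (SE, limma adjusted p = 0.18) with all libraries and 0.81 (adjusted p = 0.0079) without that replicate. At the control level, Bid measured 6.49 ± 2.97 RPKM in NC 72 h (n = 5) and 10.7 ± 3.0 RPKM in NC 24 h (SD, n = 6) when these groups were scaled together, a log2 fold change over time of -0.78 ± 0.28 (SE, adjusted p = 0.10), which without NC 72 h replicate 4 was -0.97 and called (adjusted p = 0.035).

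Bad (NM_007522), a BH3-only gene whose product is held inactive by survival kinases downstream of insulin and growth factors, was the member called lower beside Cradd. In KD 24 h it measured 7.09, 13.3 and 15.0 RPKM as lowest, median and highest, and in NC 24 h 13.9, 20.1 and 21.0 RPKM. NC samples came as 4 at 19.7 to 21.0 and 2 at 13.9 and 14.1 RPKM, the latter within the range of KD. The mean fell to 12.5 ± 3.0 from 18.3 ± 3.4 RPKM (SD, n = 6 each), 68.4% of NC, with a log2 fold change of -0.56 ± 0.19 (SE, limma adjusted p = 0.049). The call was lost without KD replicate 1, 2, 5 or 6 or NC replicate 1, 2, 5 or 6 (adjusted p = 0.051 to 0.097), and without KD replicate 6 the log2 fold change was -0.41. The clusters gave -0.61 and -0.51, neither called (adjusted p = 0.10 and 0.13).

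At 72 h Bad averaged 21.4 ± 2.4 RPKM in KD (17.9 to 24.9, n = 6) and 25.4 ± 2.0 RPKM in NC (SD, n = 5), where the samples measured 27.5, 22.7, 27.2, 24.2 and 25.5. The groups overlapped, and the log2 fold change was -0.25 with a 95% interval of -0.49 to -0.01 (limma adjusted p = 0.12). Entries of Bad did not move as 1: the 6 fitted at 24 h lay between -0.60 and 0.41, and the 7 fitted at 72 h between -0.68 and 0.20.

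Pmaip1 (NM_021451) encodes NOXA, a p53-induced protein that neutralises MCL1, and was too low at 24 h for the fit. Deposited levels at 24 h were 0.389, 0.739 and 1.35 RPKM as lowest, median and highest in KD and 0, 0.279 and 0.933 RPKM in NC, from 45 and 24 reads. The two-sided exact permutation test gave p = 0.065 (adjusted over 3 tests 0.19). At 72 h it measured 0.437, 1.71 and 2.77 RPKM in KD and 0.430, 0.0579, 1.96, 0.610 and 0 RPKM in the NC samples. KD samples split into 4 at 1.56 to 2.77 and 2 near 0.44, and NC replicate 4 (1.96 RPKM) lay among the high KD samples. The log2 fold change of 1.71 ± 0.71 was the highest of the fitted members and had the widest 95% interval (0.18 to 3.24, limma adjusted p = 0.10). Its size depended on the setting. Where it could be fitted, it ran from 1.2 to 2.29 without 1 library and from 0.68 to 2.6 under the other alternatives. Only the 4 high KD samples and NC replicate 4 reached the level the filter asks for, and without any 1 of those KD samples Pmaip1 could not be fitted.

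**Figure D2:**
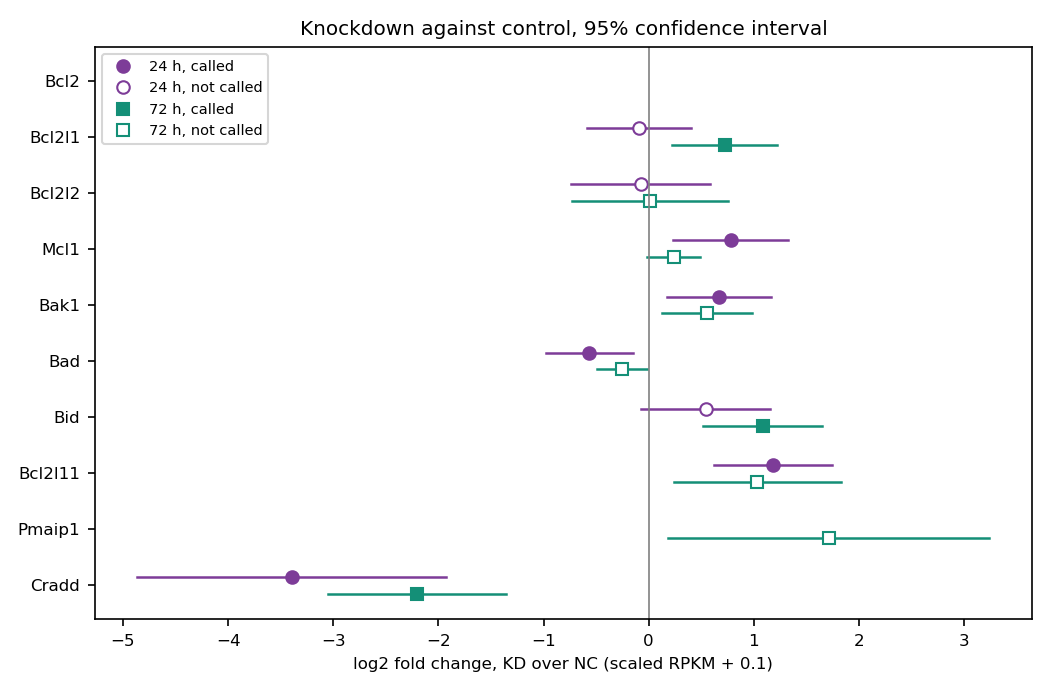
Log2 fold change of KD over NC (horizontal axis, on scaled RPKM + 0.1) with its 95% confidence interval, at 24 h (purple circles) and 72 h (green squares). Filled marks were called by limma, which for Cradd at 24 h is a description only. Bcl2 at both times and Pmaip1 at 24 h were too low to be fitted, and Cradd lies at -3.39 and -2.20.

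The adaptor Cradd (NM_009950) was the lowest of the 10 genes relative to control at both times. In KD 24 h it measured 0, 0.563 and 2.43 RPKM as lowest, median and highest, and in NC 24 h 4.02, 6.44 and 7.93 RPKM. The groups did not overlap. The mean of 1.00 ± 1.12 RPKM in KD was 16.4% of that in NC (6.08 ± 1.36, SD, n = 6 each), from 47 against 253 reads, and the log2 fold change was -3.39. KD replicate 6, listed at 0, had a limit of 1.31 RPKM for 3 reads, and without it the log2 fold change was -2.89. KD replicates 3 and 4, the smaller cluster, held the highest KD values (2.32 and 2.43 RPKM), and the log2 fold change was -1.41 in that cluster and -4.41 in the larger one. The size also depended on the pseudocount, at -1.99 with 1 and -4.20 with 0.01.

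At 72 h Cradd measured 0.527, 1.95 and 3.03 RPKM in KD and 10.4, 5.03, 10.5, 9.67 and 5.66 RPKM in the NC samples. These are other libraries than those at 24 h, but the genes were listed with earlier results of these data known. The labels also name no cultures, so the values at 72 h may not be independent of those at 24 h. Every KD sample lay below every NC sample. The mean fell to 1.89 ± 1.03 (n = 6) from 8.24 ± 2.67 RPKM (SD, n = 5), 23.0% of NC, with a log2 fold change of -2.20 ± 0.40 (SE, limma adjusted p = 0.0014). Log2 fold changes without 1 library ranged from -2.37 to -1.91 (adjusted p of 0.0053 or less), and the clusters gave -2.06 and -2.37, both called. All 6 fitted entries, which share reads, lay between -2.41 and -1.99.

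Genes of a span like that of Cradd had lower medians than short genes. Among 747 genes of 100 to 200 kb tested at 24 h, the median log2 fold change was -0.33 (quartiles -0.81 and 0.08) and 26.4% were called lower, compared with a median of 0.07 and 8.26% among 6889 genes under 50 kb. At 72 h the medians were -0.20 over 803 genes and 0.06 over 7163 genes, with 20.8% and 10.7% called lower. Of the genes of 100 to 200 kb, 4 were lower than Cradd at 72 h. The part of gene span in the values of Cradd was not tested.

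Cradd left aside, 0 of the 8 members tested were called for the interaction of knockdown and time in limma (0.192% of 59460 entries were), and 1 had an unadjusted p under 0.05. That was Bcl2l1, at 0.82 ± 0.34 (SE, adjusted p = 0.34). Count-based limma-voom also called 0. For NC 72 h against NC 24 h, 0 of the 8 members tested were called in limma and with limma-voom, beside 9.12% of all entries, while 3 had an unadjusted p under 0.05: Bid, Bad (0.41 ± 0.14, SE, adjusted p = 0.081) and Bcl2l2 (-0.56 ± 0.25, SE, adjusted p = 0.20). The comparisons at 24 h and over time share the NC 24 h libraries, and those at 72 h and over time share NC 72 h.

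**Figure D3:**
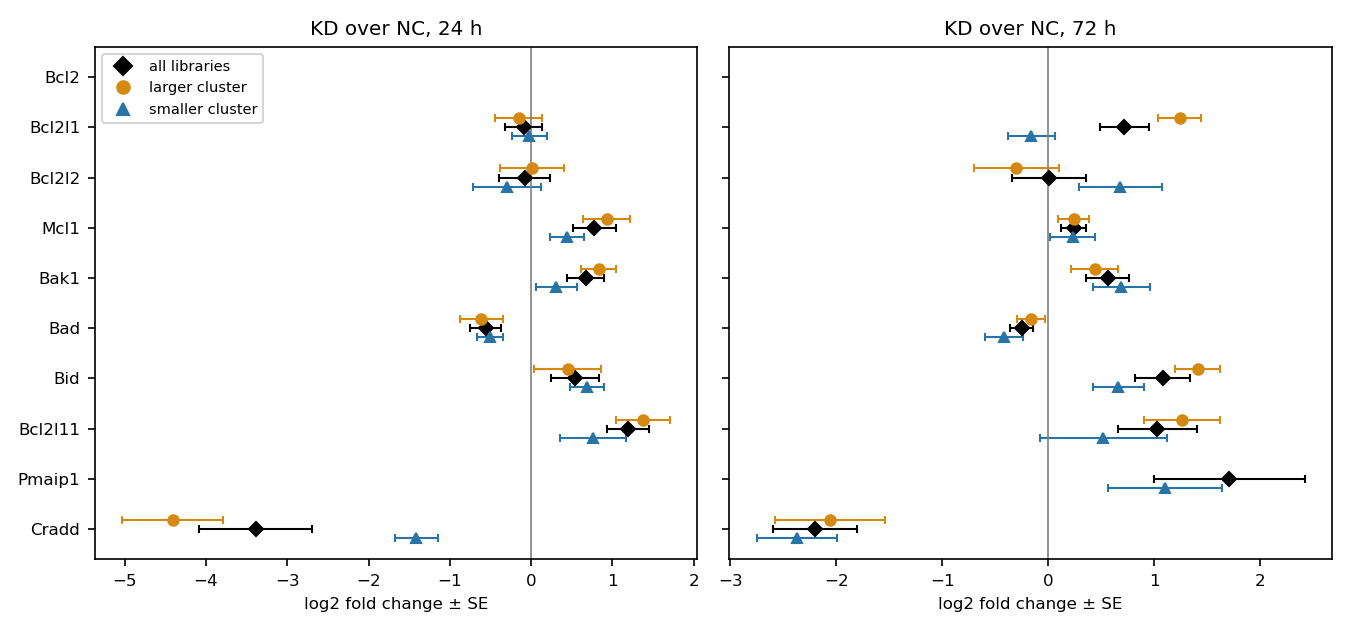
Log2 fold change ± SE of KD over NC in all libraries (black diamonds), in the larger cluster (orange circles) and in the smaller cluster (blue triangles), at 24 h (left) and 72 h (right). Bcl2l1 at 72 h lies at 1.24 in the larger and -0.16 in the smaller cluster, and Cradd at 24 h at -4.41 and -1.41. Pmaip1 was too low to be fitted in the larger cluster.

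Other genes of the apoptosis pathways, 45 in 6 groups, were read from the same fits, and 42 were matched to the table by symbol. Of these, 34 were tested at 24 h, where 3 were called higher and 3 lower, and 34 at 72 h, where 5 were higher and 4 lower, beside 22.7% and 22.4% of all entries. Median log2 fold changes were 0.10 and -0.05. In the group of apoptosome and inhibitors, 3 of 9 genes tested were called at each time, 1 higher and 2 lower, and Apaf1, Xiap, Birc2, Birc3, Birc5 and Birc6 were not. Diablo, which encodes an antagonist of inhibitor of apoptosis proteins, fell to 28.4 ± 10.1 from 48.2 ± 2.9 RPKM (SD, n = 6 each) at 24 h (log2 fold change -0.85 ± 0.21, SE, limma adjusted p = 0.012) and to 33.6 ± 5.9 (n = 6) from 59.8 ± 4.5 RPKM (SD, n = 5) at 72 h (-0.84 ± 0.13, SE, adjusted p = 0.00039). Cycs, which encodes cytochrome c of the respiratory chain and the apoptosome, fell by 0.46 ± 0.15 on the log2 scale at 24 h (SE, adjusted p = 0.042) and by 0.98 ± 0.11 at 72 h (adjusted p = 6.3e-05). Htra2, which encodes a mitochondrial serine protease, was higher by 0.73 ± 0.24 at 24 h (limma adjusted p = 0.044) and by 0.51 ± 0.15 at 72 h (0.024).

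Among caspases, Casp1, of the inflammasome, was higher at both times, with log2 fold changes of 0.91 ± 0.26 (SE, limma adjusted p = 0.021) and 1.01 ± 0.32 (adjusted p = 0.034). Casp12 was higher at 24 h (0.85 ± 0.27, adjusted p = 0.034). Casp8, the initiator that cleaves BID, rose from 1.47 ± 0.37 (n = 5) to 3.19 ± 1.01 RPKM (SD, n = 6) at 72 h (1.05 ± 0.25, SE, limma adjusted p = 0.0080), and measured 0.68 at 24 h (adjusted p = 0.061). Casp2, the caspase that CRADD recruits, measured 0.19 at 24 h (adjusted p = 0.58) and 0.14 at 72 h (0.66). Pidd1 was not matched by its symbol and was not analysed here. Casp4, Casp6 and Casp9 were not called at either time.

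Of the BCL2 proteins outside the list, Bok, a further effector, was called at 72 h, where it rose from 4.36 ± 1.497 (n = 5) to 12.6 ± 3.6 RPKM (SD, n = 6, log2 fold change 1.53 ± 0.24, SE, limma adjusted p = 0.00058), and it measured 0.62 at 24 h (adjusted p = 0.13). Bax, the partner of Bak1, measured -0.42 at 24 h (adjusted p = 0.57) and 0.83 at 72 h (0.086). The mitophagy receptors Bnip3 and Bnip3l were the BH3-only genes called. Bnip3 fell by 0.81 ± 0.23 at 24 h (SE, adjusted p = 0.023) and by 0.92 ± 0.16 at 72 h (0.00096), and Bnip3l fell by 0.43 ± 0.14 at 72 h (0.044). Bbc3, Bmf, Bik and Hrk were too low to be fitted at both times. Of the death receptors, Tnfrsf12a, the TWEAK receptor, rose to 84.7 ± 13.8 (n = 6) from 51.5 ± 9.2 RPKM (SD, n = 5) at 72 h (0.72 ± 0.14, SE, limma adjusted p = 0.0023), and none of the 6 receptor adaptors and regulators tested (Tradd, Fadd, Ripk1, Cflar, Traf2 and Faim) was called at either time.

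**Figure D4:**
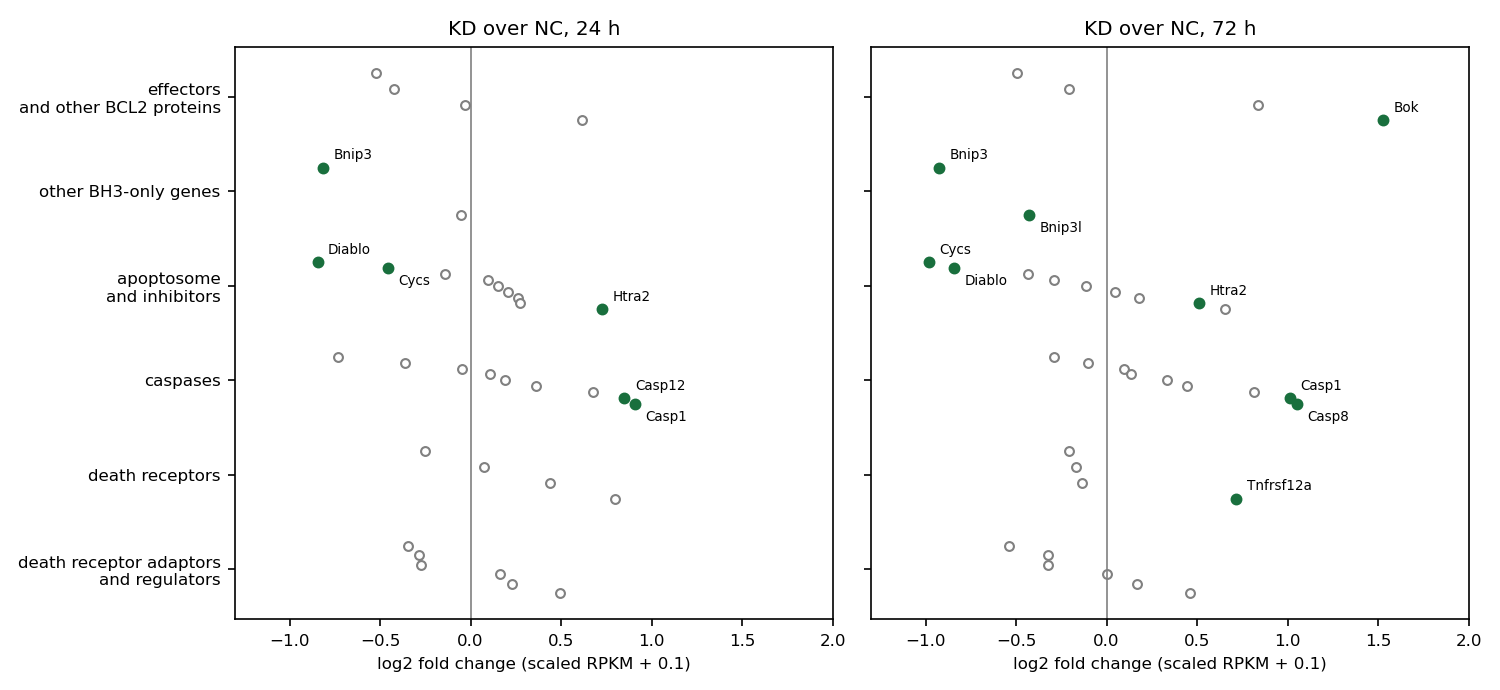
Log2 fold change of KD over NC (horizontal axes, on scaled RPKM + 0.1) for the 34 tested pathway genes in 6 groups, at 24 h (left) and 72 h (right). Filled and named points were called by limma, 6 at 24 h and 9 at 72 h. Bok at 1.53 is the highest and Cycs at -0.98 the lowest at 72 h.

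Single libraries decided part of these calls. At 24 h Diablo and Casp1 were called without each of the 12 libraries in turn, and the count of 6 pathway genes became 3 without KD replicate 1 or NC replicate 1, 3, 4, 5 or 6. The calls of Cycs (lost in 9 of 12), Htra2 (8), Casp12 (6) and Bnip3 (3) were the ones that changed. At 72 h Bok, Bnip3, Cycs, Diablo, Casp8 and Tnfrsf12a were called without each of the 12 libraries, whereas Bnip3l lost its call without KD replicate 1, 2, 3, 5 or 6 or NC replicate 1 or 6, Casp1 without KD replicate 1, 2 or 6 or NC replicate 4, 5 or 6, and Htra2 without KD replicate 2 or NC replicate 1 or 6 (adjusted p of at most 0.11, 0.080 and 0.060).

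Markers of cell types moved with the knockdown as well. Of 34 markers of 7 cell types, 18 were fitted at each time, with 2 called higher and 5 lower at 24 h and 3 higher and 9 lower at 72 h. Across all entries tested, 22.7% were called at 24 h and 22.4% at 72 h. On the deposited scale, which holds for the 3 sums given here, the sum of the 5 epithelial markers (Epcam, Cdh1, Krt8, Krt18 and Krt19) was 22.9 to 75.7 RPKM in KD 24 h, 17.9 to 25.2 in NC 24 h, 119.0 to 170.8 in KD 72 h and 17.8 to 26.6 RPKM in NC 72 h. Of these only Krt19 passed the filter, and it was called higher at both times (log2 fold change 1.06 and 2.54). The sum of 3 brite markers (Ucp1, Cidea and Ppargc1a) was 54.6 to 93.6 RPKM in KD 24 h, 87.9 to 220.4 in NC 24 h, 137.1 to 329.9 in KD 72 h and 603.2 to 950.3 RPKM in NC 72 h. Ucp1 was called lower at both times (-1.15 and -2.37). Of the 6 adipocyte markers, 3 were called lower at 24 h, Adipoq (-0.55), Pparg (-0.44) and Cebpa (-0.57), and 4 at 72 h, Adipoq (-0.96), Fabp4 (-0.58), Cebpa (-0.57) and Lpl (-0.48). Macrophage markers summed to 2.74 to 27.9 RPKM over all libraries. Csf1r was called higher at both times (1.22 and 1.23) and Lyz2 lower at 72 h (-3.68), and the other 3 of the 5 were not fitted. At 72 h Cd34, of stromal progenitors, was called higher (2.02) and Tagln, of smooth muscle, lower (-0.76). Cd34 was low, at 1.87 ± 0.61 RPKM in KD (n = 6) and 0.427 ± 0.275 RPKM in NC (SD, n = 5). Of the other stromal progenitor markers, Pdgfra (-0.30) and Ly6a (0.27) were not called, and Dlk1 and Dpp4 were not fitted. Of the other smooth muscle markers, Acta2 (-0.71) and Cnn1 (-0.99) were not called, and Myh11 and Des were not fitted. The part of these shifts in the values of the BCL2 family was not tested.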

How the data were processed

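RNA of 24 libraries from differentiating brite adipocytes was sequenced from 3′ ends by bulk RNA barcoding and sequencing. The deposited table holds RPKM, computed by the authors with the Genomatix suite (version, build and strand handling are not given in the sources used here), for 168326 RefSeq, Ensembl and GenBank entries, not counts. 0 columns were left unused. The authors' own tests used DESeq2 within a time point. Whole reads and library totals were recovered from the steps of the RPKM values (92.8% to 94.1% whole within 0.02 in 23 libraries, 73.7% in NC 72 h replicate 6, whose values also fell between steps). Counting limits of 3 reads cover counting error only.

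An entry entered a fit if its level was worth 10 reads at median depth in at least the number of samples of the smaller group, with a total of at least 15 reads. RPKM were scaled by a trimmed mean of log ratios (30% and 5% trimmed), and log2(scaled RPKM + 0.1) was fitted with limma 3.58.1 (lmFit, eBayes with trend, R 4.3.3). Fold changes on this scale understate those of low genes. Adjusted p-values are two-sided and Benjamini-Hochberg corrected over all entries tested, with calls under 0.05. Replicates 2 and 3 of NC 72 h entered as their mean. Bcl2, Pmaip1 at 24 h and Ctcflos were compared by exact permutation tests (scipy 1.17.1). The fit was tested on simulated data. The members, the gene lists and the tests were chosen with earlier results of these data known. All 10 members were named. Pathway genes were named where called, at most 4 per group and time, and others named without a call (Bax, Casp2, Pidd1 and the members of lists) were chosen after their values were seen. Some genes of the lists are not reported here by name. Alternatives were other pseudocounts (1 and 0.01), no filter, no scaling, RefSeq entries alone, 1 entry per gene, limma-voom on recovered reads, a replicate block, library clusters and leaving out libraries.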

Additional observations from a re-analysis of the deposited data

Results flagged for a closer look

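The highest samples of Bcl2 stood far from the rest of their groups in all 4 groups. On the deposited scale, the highest KD 24 h sample measured 0.852 RPKM and the next 0.245, the highest NC 24 h sample 0.387 RPKM and the next 0.0729, the highest KD 72 h sample 0.973 RPKM and the next 0.297, and the highest NC 72 h sample 0.203 RPKM with the others at 0. In 3 of these groups the value stands for 2 or 3 reads. Chance flags about 1 in 20 groups of normally spread values, and 4 of 40 groups were so marked.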

How the results depend on the processing

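Bcl2l11 at 24 h and Bid at 72 h were called under all alternatives run but the smaller cluster alone, and Cradd at 72 h under all. Mcl1, Bak1 and Bad at 24 h lost their calls under 11, 15 and 15 of 23 alternatives and Bcl2l1 at 72 h under 9 of 24, besides 1 in which its sign turned. The 5 members called at 24 h, Cradd included, became 3 with a pseudocount of 0.01, 2 without the filter, 3 with 1 entry per gene, 1 in the smaller cluster and 2 to 5 without 1 library. The 3 called at 72 h became 6 on the deposited scale, 5 with RefSeq entries only, 6 with the cluster as a term, 1 in the smaller cluster and 2 to 4 without 1 library. For NC over time the count of 0 became 1, Bid, with the cluster as a term, in the larger cluster, and with NC 72 h replicates 2 and 3 as separate samples, and 0 to 1 without 1 library. The interaction count stayed at 0 in all 36 alternatives. The 6 pathway genes called at 24 h became 2 without the filter, 2 in the smaller cluster and 3 to 7 without 1 library, and the 9 at 72 h became 5 in the smaller cluster and 6 to 9 without 1 library. Signs turned for values near 0, and also for Bcl2l1 at 72 h, which was called at 0.72 with all libraries. Bcl2l1 at 24 h ranged from -0.19 to 0.06 without 1 library, and at 72 h it was -0.16 in the smaller cluster. Bcl2l2 at 24 h was 0.01 with 1 entry per gene, 0.01 in the larger cluster and -0.25 to 0.07 without 1 library, and at 72 h it was -0.15 with 1 entry per gene, -0.01 with limma-voom, -0.30 in the larger cluster, -0.03 with the shared pair separate and -0.19 to 0.16 without 1 library. Over all entries, the 11810 calls at 24 h became 2397 with 1 entry per gene, 3679 with RefSeq entries only (both testing fewer entries) and 1544 in the smaller cluster, and the 12164 at 72 h became 2663, 3560 and 5792. For the interaction, 114 calls became 242 with a pseudocount of 1, 770 on the deposited scale, 51 with RefSeq entries only, 50 with 1 entry per gene, 386 with the cluster as a term, 866 and 1840 in the larger and the smaller cluster and 182 with the shared pair separate, and 53 (without KD 72 h replicate 1) to 175 without 1 library, and for NC over time 4820 became 1420, 1066 and 1752 with RefSeq entries only, 1 entry per gene and the smaller cluster. The cause of these changes in number was not tested.

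Replicate numbers did not pair the samples: deviations of libraries with the same number correlated at -0.07 on average at 24 h (-0.15 to 0.12) and at 0.03 at 72 h (-0.13 to 0.13). With the replicate block the calls over all entries were 8678 at 24 h, 8219 at 72 h, 28 for the interaction and 2900 for NC over time. In that fit 2 members were called at 24 h and 2 at 72 h, 0 for the interaction and 0 for NC over time, and 4 and 8 pathway genes at 24 h and 72 h. Depth limits Bcl2 and Pmaip1 most, at 1.29 and 8.38 reads per library.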

Other observations

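Over the 23 samples, the genes whose log2 levels correlated best with those of Cradd, among 12791 genes, were Esr1 (r = 0.94), Rsu1 (0.94), Bre (0.92), Tbck (0.92) and Ssbp2 (0.92), each by 1 entry. Those 5 had log2 fold changes of -1.66, -1.99, -1.41, -1.66 and -2.17 at 24 h and of -0.69, -1.38, -1.12, -0.87 and -1.22 at 72 h. With Pmaip1, the best were Slc40a1 (r = 0.84), 2700094K13Rik (0.80), Tmtc4 (0.80), Jup (0.78) and 2210013O21Rik (0.77). The correlations hold the differences between groups and the depth that libraries share, and carry no test.

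In the controls over time, Casp6 rose by 0.49 ± 0.14 from NC 24 h to NC 72 h (log2, SE, limma adjusted p = 0.044).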
